A study of Mus musculus with 1470 samples.

Results

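Kdr, Flt1, Flt4, Tek, Tie1, Ptprb, Nrp1 and Nrp2 encode 8 proteins at the surface of blood vessel cells: the VEGF receptors, the TIE receptors with the phosphatase that acts on them, and the neuropilins. They were chosen by gene symbol, and all 8 were found among the 14915 gene rows of the deposited table. Their levels were compared between classes of mouse liver cells and between 2 diets. The table holds 1470 non-parenchymal cells (NPCs, all cells of the liver but hepatocytes) profiled with Smart-seq2, a full-length single-cell RNA-seq protocol without unique molecular identifiers. The cells came from 3 male C57BL/6J mice kept on a normal diet (ND) and 3 kept on a high-fat diet (HFD) for 9 weeks from 5 weeks of age, with 60% of the energy of the HFD from fat. The paper describes the mice as wild-type, and live NPCs from a collagenase-perfused liver were sorted singly into multiwell plates.

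VEGF receptors are tyrosine kinases that bind the vascular endothelial growth factors and direct the growth and permeability of blood and lymph vessels. TIE receptors respond to the angiopoietins and keep vessels quiescent, and the phosphatase encoded by Ptprb (VE-PTP) removes phosphate from the TIE2 receptor, from VEGFR2 and from junction proteins. Neuropilins are co-receptors without a kinase of their own, which bind both VEGF and class 3 semaphorins. In the liver the sinusoids are lined by a fenestrated endothelium that carries VEGFR3 (Flt4), a receptor that in most other organs is restricted to lymphatic vessels.

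Values are RPKM (reads scaled by gene length and by the mapped reads of the cell). The log2(RPKM + 1) was averaged within each mouse for every class and compared with the mouse as the replicate. RPKM is scaled by gene length, so levels could also be compared between genes, as far as the lengths used were right. The length implied by the steps between low values was 0.92 to 1.02 times that of the annotated transcript for Kdr, Flt1, Flt4, Tie1 and Ptprb, but 1.65 times for Nrp1 (5932 against 3597 bases), and no annotated length was matched for Tek and Nrp2. Cells were sorted into 10 classes by clustering with the 8 genes and the other genes of their pathway left out, and the classes were named "-like" from marker genes. Of the 1470 cells, 471 were endothelial-like, 16% were Kupffer-like, 247 B-cell-like, 20.8% T-cell-like, 44 monocyte-derived or dendritic-like and 20 pDC-like (plasmacytoid dendritic cells). The depth estimated from the steps between low RPKM values had a median of 86546 to 196877 exon reads per cell in the 6 mice. Cells of HFD mouse 2 had the fewest genes detected, with a median of 1595.5 against 2363.5 to 3163 in the other mice. Among the 10 leading genes of each endothelial-like cluster, 2 to 9 were among the 17 endothelial markers used for naming. The monocyte-derived or dendritic-like class was 1 cluster with 14 of its own markers detected but only 1 among its 10 leading genes, so its name is less certain. Where a class had fewer mice than 6, mice with under 2 cells of that class were left out.

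All 8 genes were highest in endothelial-like cells. By the mean of log values Ptprb led with a level of 8.31 ± 0.28 (SD, n = 6 mice), followed by Kdr (VEGFR2) at 8.02 ± 0.61 and Flt4 at 7.98 ± 0.49. Nrp1 stood at 7.03 ± 0.60, Tie1 at 5.71 ± 0.86, Tek (TIE2) at 4.72 ± 0.57, Flt1 (VEGFR1) at 4.35 ± 0.61 and Nrp2 at 2.74 ± 0.66. Between neighbours in this order, Flt4 exceeded Nrp1, Nrp1 exceeded Tie1, Tie1 exceeded Tek and Flt1 exceeded Nrp2 in all 6 mice, each with an exact sign-flip p of 0.0312, the smallest that 6 mice allow. The first 3 did not separate: Ptprb exceeded Kdr in 4 of 6 mice by 0.29 ± 0.44 (exact sign-flip p = 0.188), and Kdr exceeded Flt4 in 3 of 6 by 0.04 ± 0.35 (exact sign-flip p = 0.812). Tek exceeded Flt1 in 5 of 6 mice by 0.37 ± 0.65 (exact sign-flip p = 0.219). With RPKM averaged before the logarithm, Kdr stood above Ptprb in 5 of 6 mice (Ptprb minus Kdr -0.25 ± 0.35; exact sign-flip p = 0.156), and Nrp1 and Tie1 no longer separated (0.18 ± 0.40, Nrp1 higher in 3 of 6 mice; exact sign-flip p = 0.438). These were 7 comparisons of neighbours, with p-values not adjusted for their number. The order came from the same means of log values, so the p-values are no independent test of it. The length ratio of Nrp1 is worth 0.72 on the log2 scale, and Flt4 exceeded Nrp1 by only 0.44 in ND mouse 3 and by 0.73 in HFD mouse 1, so this step of the order rests on the length used.

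**Figure D1:**
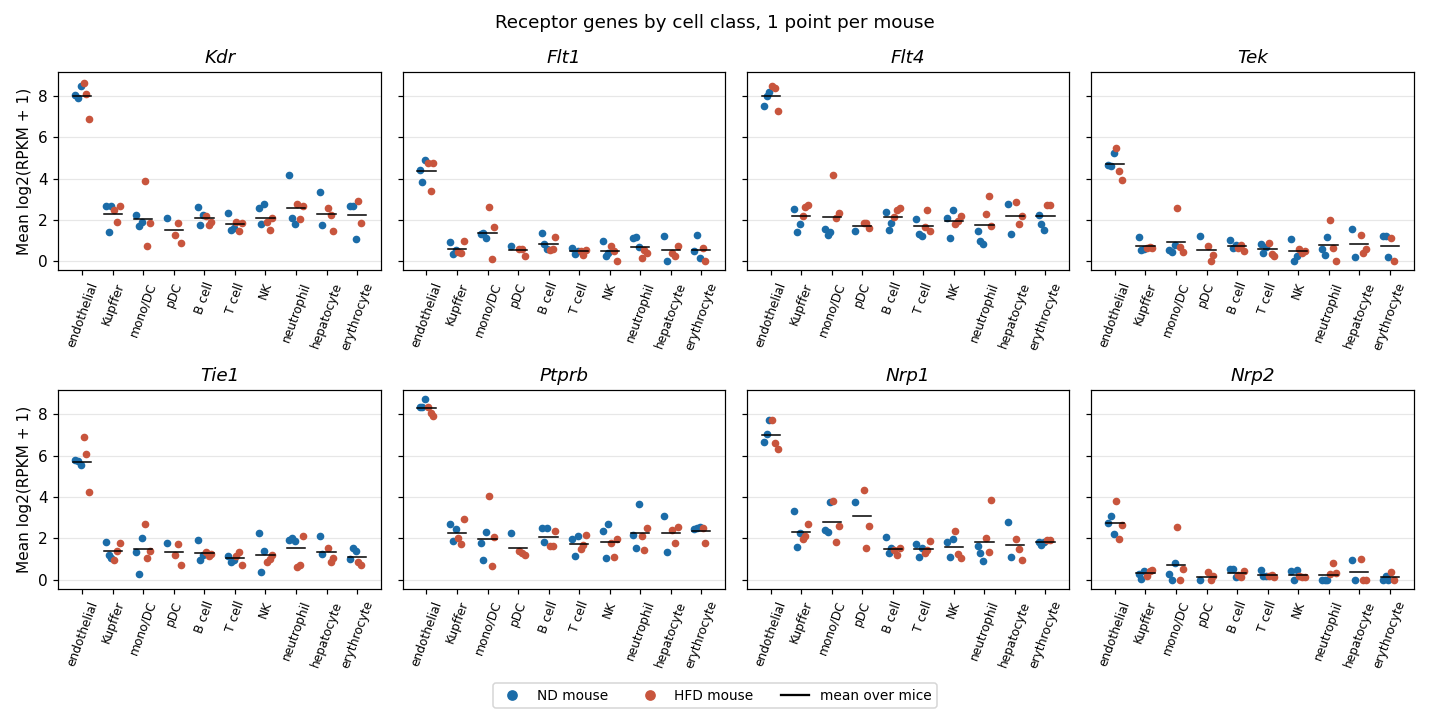
Mean log2(RPKM + 1) of each receptor gene (vertical axis, 1 panel per gene) in 10 cell classes (horizontal axis), with 1 point per mouse, blue for ND and red for HFD, and a line at the mean over mice. Each gene is highest in endothelial-like cells, at 2.74 for Nrp2 up to 8.31 for Ptprb, and Nrp1 is the gene whose points also rise in the pDC-like, mono/DC (monocyte-derived or dendritic-like) and Kupffer-like classes.

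Among the VEGF receptors, Kdr was at 8.04, 7.89 and 8.51 in ND mice 1, 2 and 3 and at 8.62, 8.12 and 6.90 in HFD mice 1, 2 and 3. Flt4 was at 7.53, 8.0 and 8.18 in the ND mice and at 8.49, 8.40 and 7.27 in the HFD mice. HFD mouse 3 was the lowest for both genes. Flt1, which binds VEGF-A tightly but signals weakly, was at 4.43, 3.82 and 4.92 in the ND mice and at 4.75, 3.40 and 4.77 in the HFD mice. On the unlogged scale the mean Flt1 level was 79.2 to 101.8 RPKM, against 342 to 653 RPKM for Kdr, with no overlap between the genes.

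For the TIE axis, Tek was at 4.64, 4.58 and 5.26 in the ND mice and at 5.49, 4.39 and 3.94 in the HFD mice. Tie1, an orphan receptor that pairs with TIE2, was at 5.80, 5.74 and 5.53 in the ND mice and at 6.89, 6.08 and 4.25 in the HFD mice. The 3 ND mice lay close together for Tie1, while the HFD mice spanned the whole range. Ptprb varied least among the 8 genes, with 8.37, 8.38 and 8.74 in the ND mice and 8.38, 8.07 and 7.92 in the HFD mice.

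Nrp1 was at 6.69, 7.04 and 7.74 in the ND mice and at 7.76, 6.61 and 6.33 in the HFD mice. Nrp2 was at 2.74, 3.09 and 2.20 in the ND mice and at 3.81, 1.95 and 2.63 in the HFD mice. Part of the low Nrp2 mean came from cells without any value: Nrp2 was listed at 0 in 236 of 471 endothelial-like cells (50.1%), against 1 cell for Ptprb, 3 for Flt4, 14 for Kdr, 16 for Nrp1, 65 for Tie1 and 89 for Tek, and in 23.1% of cells for Flt1. Where present it was not low, and 35.7% of endothelial-like cells had at least 16 RPKM of Nrp2. Only 88.4% of low Nrp2 values fell within 0.15 of a whole number of reads, against 100% for each of the other 7 genes, so Nrp2 values are less certain.

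At a low cut of at least 1 RPKM, most endothelial-like cells held most of the receptors at once. Of the 471 cells, 28.5% had all 8 genes, 190 (40.3%) had 7 and 92 (19.5%) had 6, and no cell had fewer than 2. This count is partly set by the cut. Of B-cell-like cells, a median over mice of 11.2% (Nrp2) to 87.5% (Flt4) also reached it. At least 16 RPKM was reached by 35.7% (Nrp2) to 97.2% (Ptprb) of endothelial-like cells. Over the cells of 1 mouse the genes were only weakly correlated with each other. The highest median over the 6 mice was r = 0.37 for Flt4 with Ptprb (range 0.13 to 0.55), and the lowest was 0.03 for Flt1 with Nrp2 (range -0.17 to 0.19). The number of genes detected in a cell, which these points share, had a median r of 0.13 with Ptprb up to 0.31 with Tek and with Nrp1.

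Endothelial-like cells were compared with Kupffer-like cells, the resident macrophages of the sinusoid, and with B-cell-like cells in the same mice, by a limma fit across all genes. Each of the 8 genes was higher in endothelial-like cells in 6 of 6 mice. Against B-cell-like cells the difference was 6.24 ± 0.23 (SE) for Ptprb (limma adjusted p = 3.18e-15), 5.94 ± 0.24 for Kdr (1.29e-14), 5.83 ± 0.26 for Flt4 (5.15e-14) and 5.53 ± 0.25 for Nrp1 (8.22e-14). It was 4.42 ± 0.27 for Tie1, 4.0 ± 0.24 for Tek, 3.50 ± 0.25 for Flt1 and 2.42 ± 0.24 for Nrp2 (largest limma adjusted p of the 4, 2.18e-08). Of 4063 genes tested, 51.9% were called and 31.2% were called higher in endothelial-like cells, and the median difference over all of them was 0.12. Ptprb ranked 11th, Kdr 19th, Flt4 21st and Nrp1 24th of the 4063 genes by size of difference. Flt1, Tek and Nrp2 reached the mean level of 1 required for the test only through the endothelial-like cells, so their place among the called genes followed from the filter.

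Against Kupffer-like cells the differences ran from 2.43 ± 0.26 for Nrp2 to 6.04 ± 0.24 for Ptprb, with limma adjusted p from 7.95e-07 to 1.70e-11. In this comparison 52.2% of 3883 genes were called and 33.8% were called higher in endothelial-like cells. Nrp1 had a difference of 4.70 ± 0.30 there, smaller than its 5.53 ± 0.25 against B-cell-like cells. The gap between these values is the Nrp1 difference between Kupffer-like and B-cell-like cells, tested with all genes further on. Flt1 (0.59), Tek (0.71) and Nrp2 (0.30) were again under a level of 1 in the second class and entered the test only through the endothelial-like cells.

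Promoter windows from RefSeq (build GRCm38.p6) were matched for 7 of the 8 genes, all but Ptprb. Starts were those of RefSeq, and the windows of Flt4, Tie1 and Nrp1 lie wholly inside the gene models given below, which begin further upstream. For the 4 genes that held at least 2 copies of the core motif bound by ETS factors, a family that is widely used in endothelial promoters, within 100 bases before the start, those 100 bases are shown in the direction of the gene, with the core (GGAA, or TTCC on the opposite strand) in capitals.
Flt1, chr5:147726012-147726111, minus strand: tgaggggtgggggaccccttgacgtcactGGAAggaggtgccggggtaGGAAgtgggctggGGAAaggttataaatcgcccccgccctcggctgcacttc
Tek, chr4:94739189-94739288, plus strand: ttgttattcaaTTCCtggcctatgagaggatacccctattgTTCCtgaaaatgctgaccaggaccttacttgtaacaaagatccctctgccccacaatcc
Tie1, chr4:118489850-118489949, minus strand: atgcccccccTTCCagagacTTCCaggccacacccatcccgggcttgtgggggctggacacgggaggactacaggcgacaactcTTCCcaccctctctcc
Nrp1, chr8:128358973-128359072, plus strand: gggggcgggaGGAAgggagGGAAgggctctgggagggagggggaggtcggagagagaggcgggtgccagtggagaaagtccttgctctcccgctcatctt
Within 250 bases before the start the core occurred 7 times in Tie1, 4 times in Kdr, Flt1 and Nrp1, 2 times in Flt4 and Tek and 1 time in Nrp2. The motif is short, and 93.4% of 32851 RefSeq promoter windows of the same length held it at least 1 time, with a median of 3, so its presence was not particular to these genes. A GC box (GGGCGG, or CCGCCC on the opposite strand) was present in 5 of the 7 windows, all but Tek and Tie1, and in 32.7% of all windows.

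By gene models, Kdr (ENSMUSG00000062960.10) lies on chromosome 5 at 75932827-75978458 and Flt1 (ENSMUSG00000029648.13) on chromosome 5 at 147561604-147726011, both on the minus strand of GRCm38. Flt4 (ENSMUSG00000020357.3) lies on chromosome 11 at 49609263-49652739, Tek (ENSMUSG00000006386.15) on chromosome 4 at 94739289-94874976 and Tie1 (ENSMUSG00000033191.14) on chromosome 4 at 118471191-118490061. Ptprb (ENSMUSG00000020154.10) lies on chromosome 10 at 116275523-116389535, Nrp1 (ENSMUSG00000025810.9) on chromosome 8 at 128358604-128503363 and Nrp2 (ENSMUSG00000025969.15) on chromosome 1 at 62703285-62818695.

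Outside the endothelial-like cells a low level of the receptors was read in every class. In B-cell-like cells the median cell held 4.96 reads of Ptprb and 0.998 of Tie1, against 563 and 67.1 in endothelial-like cells at a similar depth (median 113653 and 117785 exon reads). To compare genes, the mean RPKM in a class was written as a share of the endothelial-like mean in the same mouse. In B-cell-like cells the median share over 7 genes (Nrp2 was left out because it was 0 in most cells) was 0.719% to 2.06% in the 6 mice, and in T-cell-like cells it was 0.413% to 0.831%. NK-like and hepatocyte-like cells had median shares of 0.295% to 1.44% and 0.423% to 2.41%. Transcripts that mark sinusoidal endothelium were read at like shares: Stab2, a scavenger receptor, was at 0.714% to 2.09% in B-cell-like cells and Clec4g, a lectin, at 0.929% to 1.57%. In Kupffer-like cells Stab2 was at 3.54% to 12.3% and Dnase1l3, a secreted nuclease, at 1.94% to 6.01%, while Clec4g was at 0.785% to 3.10%, with a median of 1.23% against 1.22% in B-cell-like cells. Where this low signal came from was not tested. Levels of Kdr, Flt1, Flt4, Tek, Tie1 or Ptprb near these shares in another class were read neither as expression nor as its absence.

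Nrp1 mostly had a larger share than the median of the other receptors in Kupffer-like, monocyte-derived or dendritic-like and pDC-like cells. In Kupffer-like cells its share was 17.4%, 2.60% and 4.93% in ND mice 1, 2 and 3 and 3.62%, 3.89% and 10.7% in HFD mice 1, 2 and 3. Divided by the median share of Kdr, Flt4, Tek, Tie1 and Ptprb in the same cells, it was 2.41 to 10.5 times as high, above 1 in 6 of 6 mice. In the same Kupffer-like cells, the median share of the receptors other than Nrp2 was 1.05% to 1.78% in 5 mice and 4.5% in HFD mouse 3, where Tie1, at 12.2%, was above Nrp1. Set against the endothelial markers, the Nrp1 share was above that of Clec4g, Stab1, Aqp1 and Egfl7 in 6 of 6 mice, above Dnase1l3 in 5 and above Stab2 in only 4, with medians of 4.41% for both Nrp1 and Stab2. Nrp1 in Kupffer-like cells was therefore not separated from every endothelial transcript. In monocyte-derived or dendritic-like cells the Nrp1 share was 4.29%, 12.9% and 7.32% in the ND mice and 15.1%, 12.1% and 3.44% in the HFD mice, above the other genes' median in 5 of 6 mice. In pDC-like cells, where 4 mice had at least 2 cells, it was 9.79% in ND mouse 1 and 12%, 5.36% and 30.9% in the HFD mice, 9.87 to 73.8 times the other genes' median. The class had 4 or 5 cells in each of these mice, and the values of HFD mice 2 and 3 rested on 1 cell each with at least 16 RPKM. For comparison, the ratio in B-cell-like cells was 0.81 to 1.36, with a median of 1.14. Neutrophil-like cells, also myeloid, had a ratio of 0.53 to 16.1 with a median of 1.31, and 2 of their 32 cells reached 16 RPKM of Nrp1. In T-cell-like cells it was 0.905 to 9.88 with a median of 2.21, above 1 in 5 of 6 mice, and the highest T-cell-like share of Nrp1, 7.80% in HFD mouse 3, came from a class of 18 cells in that mouse.

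**Figure D2:**
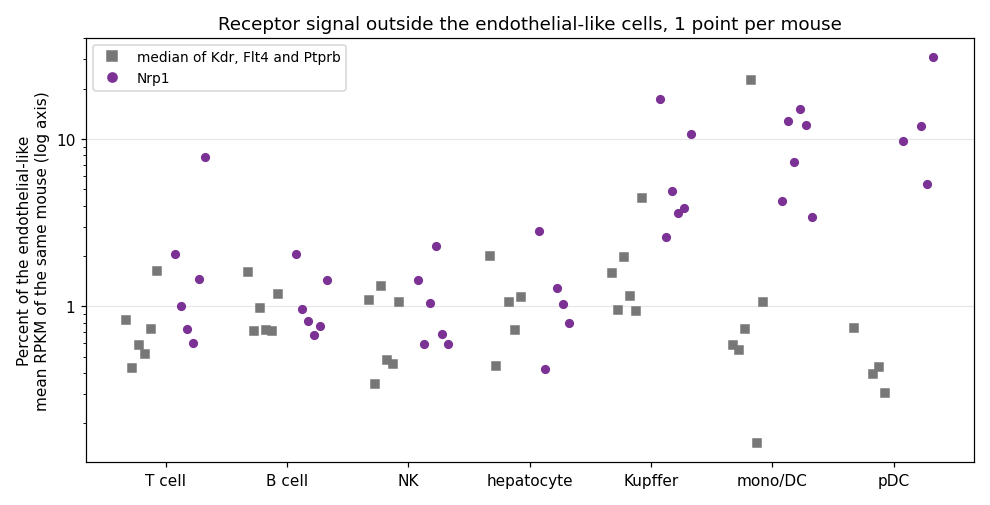
Mean RPKM in 7 cell classes (horizontal axis) as a percent of the endothelial-like mean of the same mouse (vertical axis, log scale), with grey squares for the median of Kdr, Flt4 and Ptprb, purple circles for Nrp1 and 1 point per mouse. Nrp1 lies with the grey squares in B-cell-like cells and above them in all 4 mice of the pDC-like class, where it is 5.36% to 30.9%.

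Tested across all genes, Nrp1 was higher in Kupffer-like than in B-cell-like cells by 0.83 ± 0.23 (SE; limma adjusted p = 0.00637), and in 6 of 6 mice. Nrp1 was at 3.32, 1.58 and 2.27 in Kupffer-like cells of the ND mice and at 1.96, 2.10 and 2.71 in those of the HFD mice. Its level in B-cell-like cells averaged 1.5 ± 0.31 (SD, n = 6 mice). Of 3472 genes tested, 51.4% were called, 22.9% were called higher in Kupffer-like cells, and 20.6% were higher in 6 of 6 mice, so a call in this comparison is common. None of the other 4 genes that passed the filter was called: the difference was 0.22 ± 0.23 for Kdr, 0.20 ± 0.22 for Ptprb, 0.06 ± 0.23 for Tie1 and 0.05 ± 0.21 for Flt4 (SE; limma adjusted p from 0.457 to 0.884). Flt1, Tek and Nrp2 were below the mean level required for this test. Of 6 endothelial marker genes in the same comparison, Stab2 was higher in Kupffer-like cells by 1.28 ± 0.25 (limma adjusted p = 0.000397) and Dnase1l3 by 0.73 ± 0.24 (0.0174), each in 6 of 6 mice, and Clec4g, Stab1, Aqp1 and Egfl7 were not called. The Nrp1 difference thus lay between those of these 2 markers. Clustering with 10 principal components instead of 20 gave 0.68 for Kdr (limma adjusted p = 0.0434) and 0.72 for Ptprb (0.0358), so that these 2 genes were called under that setting.

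The Nrp1 signal of the Kupffer-like, monocyte-derived or dendritic-like and pDC-like classes came from a part of their cells. At least 16 RPKM of Nrp1 was read in 39 Kupffer-like cells (16.6%), 13 of 44 monocyte-derived or dendritic-like cells (29.5%) and 7 of 20 pDC-like cells (35%). The same level was reached in 4 of 247 B-cell-like cells (1.62%) and 7 T-cell-like cells (2.29%). Depth was not equal: the median was 99449 exon reads in Kupffer-like, 255960 in monocyte-derived or dendritic-like, 216866 in pDC-like, 113653 in B-cell-like and 136181 in T-cell-like cells. Every mouse contributed Kupffer-like cells with Nrp1 at that level, from 4 of 52 in HFD mouse 1 to 14 of 49 in ND mouse 1. In 24 of the 39 Kupffer-like cells and in all 7 pDC-like cells, none of Kdr, Flt4 and Ptprb reached 16 RPKM.

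A smaller number of myeloid cells were high for the endothelial receptors together. In 19 Kupffer-like cells (8.09%) at least 2 of Kdr, Flt4 and Ptprb reached 16 RPKM, with 6, 0 and 3 in the ND mice and 2, 2 and 6 in the HFD mice, against 3 of 247 B-cell-like cells (1.21%) and 4 T-cell-like cells (1.31%). These 19 cells also had a median of 127.3 RPKM of Clec4g and 45.9 of Stab2, against 28.1 and 14.2 in the remaining Kupffer-like cells. Of the Kupffer cell genes, Clec4f was lower in them, with a median of 1437 RPKM against 4021 in the others, while C1qa was at 6656 against 8772 and Csf1r at 1074 against 1148. Cd3e, a T cell gene, was at 52.4 RPKM in them against 5.70 in the others. The number of genes detected was alike, at medians of 2289 and 2329.5. Whether a second cell or free RNA contributed to these profiles was not tested. With these cells left out of the Kupffer-like class, and the B-cell-like class left as it was, Nrp1 was higher than in B-cell-like cells by 0.73 (limma adjusted p = 0.0116).

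Monocyte-derived or dendritic-like cells showed Nrp1 above the B-cell-like level by 1.29 ± 0.84 (SD), in 6 of 6 mice (exact sign-flip p = 0.0312, the smallest that 6 mice allow). Adjusted over the 8 genes of this comparison, the sign-flip p was 0.25, so Nrp1 was not called here. Their Nrp1 level was 2.39, 2.31 and 3.75 in the ND mice and 3.82, 1.82 and 2.60 in the HFD mice. Flt1, a receptor that monocytes are known to carry, exceeded the B-cell-like level in 4 of 6 mice by 0.51 ± 0.87 (exact sign-flip p = 0.219). Its share of the endothelial-like level was 4.24%, 21.5% and 5.69% in the ND mice and 39.7%, 0.106% and 4.86% in the HFD mice, and it rested on 7 of 44 cells with at least 16 RPKM. Only 4 cells, all of HFD mouse 1, held the endothelial receptors together, with a median of 140 RPKM of Kdr, 253.8 of Flt4, 446 of Stab2 and 5961.5 genes detected, against 3219 genes in the other 40. Without them the Nrp1 difference was 0.98 and again positive in 6 of 6 mice, that of Flt1 was 0.0756, positive in 3 of 6. Among the 44 cells, 13 had high Nrp1, and all 4 of the cells just described were among them. Of 10 monocyte and dendritic cell genes, 9 had a higher mean level in these 13 cells than in the other 31. Without the 4 cells the count was again 9 of 10, at a median of 2992 genes detected in the 9 high cells and 3237 in the 31. These cells were pooled over mice. With all 13 cells, Ly6c2 was at 8.0 against 5.37 and Ccr2 at 7.09 against 5.30, both genes of recently arrived monocytes. Cx3cr1, high in patrolling monocytes, was at 6.16 against 4.01, and the dendritic cell genes Cd209a and Clec9a were at 3.44 against 1.81 and 2.66 against 1.06. The remaining gene, Ace, also found in patrolling monocytes, was at 0.53 against 2.89. Without the 4 cells, Ly6c2 was at 8.26, Ccr2 at 6.53, Cx3cr1 at 5.69, Cd209a at 2.59, Clec9a at 1.95 and Ace at 0.77. The differences of Cd209a and Clec9a from the 31 cells were then smaller. Itgax counted as higher at 3.20 against 3.12, and no count over all genes is given beside the 9 of 10.

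In pDC-like cells Nrp1 was at 3.78 in ND mouse 1 and at 4.35, 1.54 and 2.59 in HFD mice 1, 2 and 3, above the B-cell-like level in 4 of 4 mice by 1.51 ± 1.07 (SD; exact sign-flip p = 0.125, the smallest that 4 mice allow). Kdr, Flt4 and Ptprb went the other way, with differences of -0.60 ± 0.49, -0.70 ± 0.31 and -0.51 ± 0.46. With classes drawn from marker levels instead of clusters these turned to 1.44, 0.90 and 1.69, higher in 4 of 4 mice, so their direction depended on how the class was drawn. In the clustered class Flt4 and Ptprb were lower in 4 of 4 mice and Kdr in 3 of 4. Only 20 pDC-like cells were found.

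Across all classes the order below the endothelial-like cells was not resolved between neighbouring classes for any of the 8 genes, with the lowest exact sign-flip p at 0.125. Classes further apart were tested only against B-cell-like cells, as given for Nrp1. For Nrp1 the next classes were pDC-like at 3.06, monocyte-derived or dendritic-like at 2.78 and Kupffer-like at 2.33, and these neighbours did not differ beyond their spread (exact sign-flip p of 0.5 and 0.375). For Flt1 the next class was the monocyte-derived or dendritic-like, at 1.35 ± 0.81 (SD), followed by B-cell-like cells at 0.84 ± 0.34. For Kdr it was the neutrophil-like class, at 2.59 ± 0.87, followed by Kupffer-like cells at 2.29 ± 0.52 (exact sign-flip p = 0.406). Ptprb was read at 2.35 ± 0.34 (5 mice) in erythrocyte-like cells, the class next below for that gene, followed by Kupffer-like cells at 2.27 ± 0.50.

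Diet was compared in endothelial-like cells with the 3 mice of each diet as replicates. No receptor gene was called different. The difference of HFD minus ND was -0.27 for Kdr (95% interval -1.30 to 0.76), -0.09 for Flt1 (-1.12 to 0.95) and 0.15 for Flt4 (-0.83 to 1.13). It was -0.22 for Tek (-1.23 to 0.79), 0.05 for Tie1 (-1.13 to 1.23) and -0.37 for Ptprb (-1.26 to 0.52). Nrp1 had a difference of -0.26 (-1.28 to 0.77) and Nrp2 of 0.12 (-0.95 to 1.18). The limma adjusted p was 0.999 for all 8, and the exact permutation p over mice was 0.3 to 1.0, where 3 against 3 mice allow no less than 0.1. Of 4227 genes tested, 0% were called (86 had an unadjusted p under 0.05), and the median difference over all genes was -0.15. The intervals span about 1 log2 unit to either side, and in simulated data of this comparison 56% of genes changed by 2 log2 units and 2% of those changed by 1 were called. Without HFD mouse 3, 49 genes were called, and none of the 8 was among them.

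**Figure D3:**
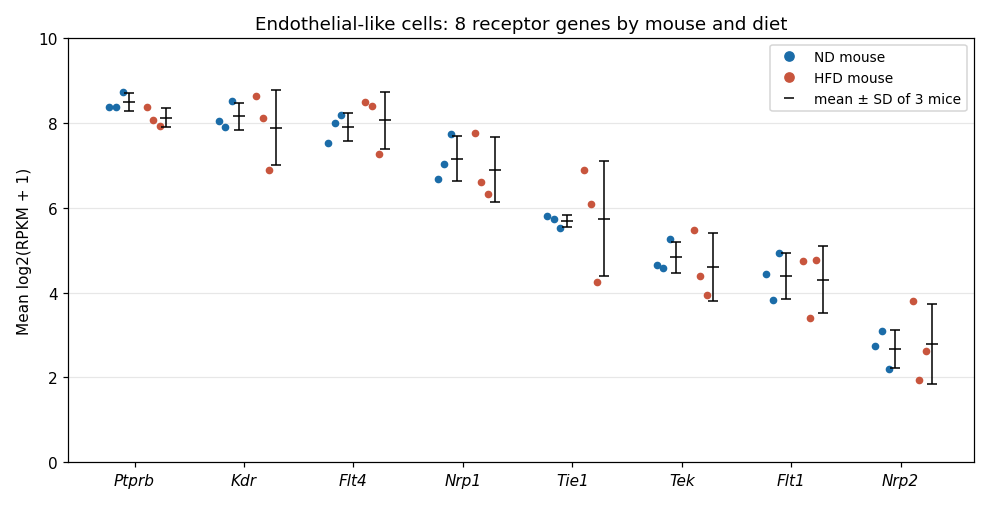
Mean log2(RPKM + 1) of the 8 receptor genes in endothelial-like cells (vertical axis), ordered by level, with 1 point per mouse (blue ND, red HFD) and the mean ± SD of the 3 mice of each diet in black. The diets overlap for each gene, and the HFD mice spread more widely, as for Tie1 with 4.25 to 6.89.

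In Kupffer-like cells 5 of the 8 genes had enough signal to be tested, and none was called, with differences from -0.13 for Nrp1 to 0.60 for Flt4 (limma adjusted p = 1.0 for each), where 0.0306% of 3267 genes were called. In B-cell-like cells the same 5 genes ran from -0.38 for Ptprb to 0.49 for Flt4 (limma adjusted p = 0.996 for each), where 0% of 3626 genes were called (3.78% had an unadjusted p under 0.05). Flt4 was the most positive of the genes in both classes, at low levels: its mean was 1.90 in ND and 2.5 in HFD mice in Kupffer-like cells and 1.91 and 2.4 in B-cell-like cells. The median difference over all genes was -0.22 in Kupffer-like and -0.30 in B-cell-like cells. Diet groups did not overlap for 0 of the 8 genes in any of the 3 classes, against 5.28%, 5.82% and 9.76% of all genes tested in endothelial-like, Kupffer-like and B-cell-like cells.

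The endothelial-like class held a split between its clusters. Of its 4 clusters, numbers 6 and 10 (37.4% of the cells) were led by Ramp2, Ppap2a, Fam167b and Cyp4b1, and numbers 4 and 5 by Dnase1l3, Clec4g, Gpr182 and Igfbp7. This pairing of clusters was made after their values were seen, and the comparison is a description without a test. Tek was higher in clusters 6 and 10 within each of the 6 mice, by 3.31, 2.95 and 2.45 in the ND mice and by 3.47, 2.13 and 2.35 in the HFD mice. Tie1 followed with a mean difference of 2.55 (range 0.84 to 4.29), then Flt1 with 1.46 (0.56 to 2.5), and both were higher in 6 of 6 mice. Ptprb differed least, by 0.38 (range -0.60 to 1.10), and was higher in 4 of 6 mice. Kdr (1.39), Nrp2 (1.40), Nrp1 (1.20) and Flt4 (1.07) lay between.

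**Figure D4:**
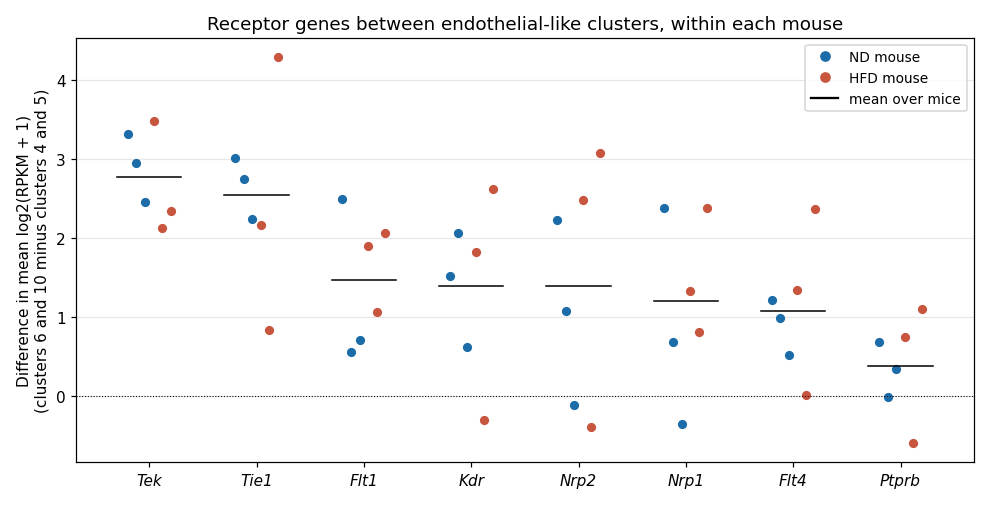
Difference in mean log2(RPKM + 1) between endothelial-like clusters 6 and 10 and clusters 4 and 5 (vertical axis) for the 8 receptor genes, with 1 point per mouse (blue ND, red HFD) and a line at the mean. Tek is above 2 in all 6 mice, while Ptprb runs from -0.60 to 1.10.

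Other measures moved with this split. Kit and Wnt2, genes of the central vein side of the lobule, were higher in clusters 6 and 10 in 6 of 6 mice, by means of 2.32 and 2.37. The Wnt2 difference was only 0.03 in HFD mouse 3. Other genes of the central vein side and genes of the portal side were not compared between these clusters. The median number of genes detected was 2973 in clusters 6 and 10 and 2266 in clusters 4 and 5. Transcripts of other liver cells were lower in clusters 6 and 10 in 6 of 6 mice: Alb of hepatocytes by a mean of -2.30, C1qa of Kupffer cells by -1.72 and Coro1a of leukocytes by -1.66. The part of these measures in the receptor differences was not tested. The share of endothelial-like cells in clusters 6 and 10 was 26.6%, 47.5% and 43.4% in ND mice 1, 2 and 3 and 66%, 22.5% and 13% in HFD mice 1, 2 and 3. HFD mouse 1, with the largest share, had the highest Kdr, Flt4, Tek, Tie1, Nrp1 and Nrp2 of the 6 mice, and HFD mouse 3, with the smallest, had the lowest Kdr, Flt4, Tek, Tie1, Nrp1 and Ptprb. The 4 mice between followed the share for some genes and not for others. Nrp1 was at 7.04 and 7.74 in ND mice 2 and 3, against 6.69 and 6.61 in ND mouse 1 and HFD mouse 2, which had smaller shares. HFD mouse 2 had the lowest Tek, Flt1, Nrp1 and Nrp2 of these 4 mice, but the highest Flt4 (8.40) and Tie1 (6.08). Within clusters 6 and 10 alone, the diet differences ran from -0.39 for Tek to 0.48 for Nrp2 (limma adjusted p = 1.0 for all 8 genes). The differences from B-cell-like cells were larger in these clusters, at 5.70 for Tek and 6.09 for Tie1.

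Sinusoidal endothelium differs between the portal and the central end of the liver lobule, and cells were ranked in each mouse by genes of the central vein side (Kit, Wnt2, Wnt9b, Rspo3, Thbd and Cdh13) against genes of the portal side (Dll4, Efnb2, Msr1, Ltbp4, Ntn4 and Adam23). The ranking was divided into 3 equal parts, and the pericentral-leaning and periportal-leaning ends (15 to 36 cells each per mouse) were compared within mice, while 21.7% of the cells lay within 0.1 of a border in the score. None of the 8 genes was called, where 1.36% of the 4425 genes tested were, and 0.542% of those tested were lower on the pericentral side. Nrp1 had the largest difference: it was at 6.59, 6.96 and 7.51 in the pericentral-leaning end of the ND mice against 6.98, 7.90 and 7.90 in the periportal-leaning end. In the HFD mice it was at 7.71, 6.61 and 6.13 against 8.32, 6.82 and 7.53. It was lower on the pericentral side in 6 of 6 mice, a difference of -0.66 ± 0.28 (SE; 95% interval -1.24 to -0.07; limma adjusted p = 0.381), and 6.19% of all genes had 1 direction in 6 of 6 mice. Ptprb was lower in 5 of 6 mice by -0.44 ± 0.29 (limma adjusted p = 0.666) and Tek higher in 5 of 6 by 0.53 ± 0.34 (0.649), a value of 0.15 without ND mouse 3, where Tek was at 6.99 against 4.61. Kdr, Flt1, Flt4, Tie1 and Nrp2 differed by -0.18 to 0.17. Nrp2 was higher on the pericentral side in 5 of 6 mice and lower in HFD mouse 3, at 1.92 against 4.04.

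Of 5 VEGF ligands and 3 angiopoietins, none reached a mean level of 1 in the class comparisons, so none was tested there. Vegfa, the main ligand of Kdr, was highest in neutrophil-like cells at 0.42 ± 0.91 (SD, n = 6 mice; 0.0532 without the highest mouse), followed by endothelial-like cells at 0.36 ± 0.36. Vegfb, a ligand of Flt1, was highest in pDC-like cells at 2.01 ± 0.74 (n = 4 mice), followed by endothelial-like cells at 1.16 ± 0.51, where it could be tested for diet (0.09, limma adjusted p = 0.999). Vegfc, the ligand of Flt4, was highest in endothelial-like cells at only 0.09 ± 0.10. Pgf and Figf (Vegfd) had means of 0.46 ± 0.93 and 0.71 ± 1.42 in pDC-like cells, each from 1 of 4 mice, with the other 3 at 0. Angpt2, the angiopoietin stored by endothelial cells, was highest in endothelial-like cells at 0.60 ± 0.36. Angpt1, which activates TIE2, was highest in pDC-like cells at 0.75 ± 0.87, with 2 of 4 mice above 0, and Angpt4 in T-cell-like cells at 0.04 ± 0.07.

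On the neuropilin side, 2 of the 7 class 3 semaphorins listed were analysed. Sema3f, a ligand of neuropilin 2, was highest in endothelial-like cells at 3.29 ± 0.71 and exceeded B-cell-like cells by 2.85 ± 0.27 (SE; limma adjusted p = 9.07e-09), where its level of 0.44 was too low to enter the test without the endothelial-like cells. Sema3d was at 0.31 ± 0.15 in endothelial-like cells and at 0.33 ± 0.66 in pDC-like cells, where 1 of 4 mice carried the value and the other 3 were at 0. Of 4 plexins, the signalling partners of the neuropilins, only Plxnd1 had enough signal to be tested between classes, and it exceeded B-cell-like cells by 4.95 ± 0.27 (limma adjusted p = 1.17e-12) and Kupffer-like cells by 4.64 ± 0.27 (6.09e-10). Plxna2 could be tested within endothelial-like cells, where it differed between diets by 0.15 (limma adjusted p = 0.999).

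Downstream, 12 of 13 junction, adaptor and signal genes were tested against B-cell-like cells, of which 7 were higher and 1 lower in endothelial-like cells, with a median difference of 1.14 against 0.12 over all genes, of which 31.2% were called higher and 20.7% lower. Of these 7, Cdh5, Nos3, Nck1, Akt1 and Gipc1 were under a level of 1 in B-cell-like cells and entered the test through the endothelial-like cells, as did Sox17 among the transcription genes. Cdh5 (VE-cadherin), whose junctions VE-PTP acts on, differed by 4.82 ± 0.27 (limma adjusted p = 2.26e-12), Fyn by 2.93 ± 0.23, Nos3 (endothelial nitric oxide synthase) by 2.80 ± 0.24 and Plcg1 by 2.03 ± 0.23. Cdh5 was also read at 3.82 in Kupffer-like cells. Of 5 other phosphatases 3 were tested, of which 0 were higher and 2 lower in endothelial-like cells: Ptpn6, a phosphatase of blood cells, by -3.61 ± 0.34 and Ptpn1 by -0.60 ± 0.22. Among 16 transcription and response genes analysed, 8 were tested, with 3 higher and 3 lower, beside the 31.2% and 20.7% over all genes. Sox18 (4.46 ± 0.28), Ets2 (4.20 ± 0.25) and Sox17 (1.80 ± 0.22), regulators of endothelial genes in the case of the 2 Sox factors, were higher, and Klf2, a gene of flow response and of resting lymphocytes, was lower (-1.63 ± 0.26). Against Kupffer-like cells 6 of 12 junction, adaptor and signal genes were higher and 2 lower, 0 of 3 phosphatases were higher and 3 lower, and 6 of 9 transcription and response genes were higher and 0 lower, among them Klf2 (2.08 ± 0.26). Over all genes 33.8% were called higher and 18.5% lower there, and Nos3, Nck1, Sox17 and Foxo1 of these higher genes were under a level of 1 in Kupffer-like cells. No pathway gene was called between the diets in any of the 3 classes, or between the ends of the zonation score.

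The genes with the pattern most like the receptors were sought over 47 class-by-mouse means of the 10 classes, among 439 genes with a mean of at least 4 in endothelial-like cells. These correlations describe levels that all separate endothelial-like from other cells in the same libraries. Kdr was most like Eng (endoglin, r = 0.985), Flt4 most like Ltbp4 (0.980), and Flt1 most like Sdpr (0.962). Tek was closest to Npr1 (0.976) and Tie1 to Tspan7 (0.962). Ptprb was closest to Igfbp7 (0.984), Clec4g (0.982) and Dnase1l3 (0.981), Nrp1 to Tmem2 (0.954) and Nrp2 to Col4a1 (0.935).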

How the data were processed

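The authors mapped 50-base reads with STAR (mm10), retained those mapping uniquely, computed RPKM on RefSeq genes and filtered cells, with doublets removed by Scrublet before deposit, so no doublet caller was run here. The deposited values are RPKM, to which a model for counts cannot be applied. The mouse of each of the 1470 cells was taken from its label, and 0 columns were left without a sample. Depth was estimated from the steps between low values, of which 61.4% lay within 0.05 of a whole number of reads (11% with shuffled gene lengths). This depth sets counting error only, since reads without molecular identifiers are not independent molecules.

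Clusters were built from 1000 variable genes (68 genes, the receptors, their pathway and the zonation genes, held out), 20 principal components and 15 neighbours, giving 16 clusters named from markers. Means of log2(RPKM + 1) per mouse were fitted with limma 3.58.1 (R 4.3.3) where a gene averaged 1 or more and a mouse had 5 or more cells of the class, without a mean-variance trend and with the mouse as a block between classes, and adjusted over all genes by Benjamini-Hochberg. The pseudocount makes a difference understate the change of low genes. Exact permutation and sign-flip tests over mice were two-sided. P-values measure the spread between these mice. The cell titles had their own form for each mouse, so this spread includes any difference between what these titles mark. The fits were tested on simulated data. Named genes are the 8 receptors, up to 4 called genes with the largest difference per pathway group (named here for the comparison with B-cell-like cells), the class with the highest mean for ligands and semaphorins, and up to 3 genes of most like pattern. Genes named for the cluster split and the high-receptor cells were chosen after their values were seen. The members and gene lists were chosen with earlier results of these data known. Alternatives covered the pseudocount, averaging before the logarithm, rescaling, the filter, a trend, clustering, marker-based classes, a replicate block and leaving out each mouse. Gene positions are those of GENCODE M21 (GRCm38), and promoter sequences those of RefSeq. Python 3.11.15 and scikit-learn 1.9.0 were used.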

Additional observations from a re-analysis of the deposited data

Results flagged for a closer look

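Among 40 sets of 4 to 6 mice, formed by each of the 8 genes in 5 classes, 5 had 1 mouse far from the others by the gap between it and its neighbour relative to the whole range. Chance alone gives about 1 in 20 sets. Of the 5, 3 were HFD mouse 1 in monocyte-derived or dendritic-like cells, where Flt4 was at 4.17, Tek at 2.55 and Nrp2 at 2.53. That mouse holds the 4 cells of this class that were high for several endothelial receptors. In Kupffer-like cells Tek was at 1.15 in ND mouse 1, against 0.52 to 0.69 in the others. In pDC-like cells Ptprb was at 2.27 in ND mouse 1, against 1.18 to 1.36 in the 3 other mice measured.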

How the results depend on the processing

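All 8 receptor genes were called higher in endothelial-like than in Kupffer-like and B-cell-like cells under each alternative run, and Nrp1 was called higher in Kupffer-like than in B-cell-like cells under each (0.69 to 2.12; limma adjusted p 0.00108 to 0.0296). Flt1, Tek and Nrp2 met the filter of the main setting only through the endothelial-like cells. None of the 8 genes was called between diets or between the ends of the zonation score under any. Counts of called genes moved as follows. For the diet in endothelial-like cells the count was 0, and 1 with a mean-variance trend or medians over cells, and 0 to 49 when 1 mouse was left out (49 without HFD mouse 3). For the diet in Kupffer-like cells it was 1, Serpina1e, a hepatocyte gene (named after its value was seen), lower in HFD, and with a mean-variance trend 1 other gene, higher in HFD, and 0 with the mean before the logarithm, no filter, marker-based classes or medians over cells, and 0 to 1 leaving out 1 mouse. In B-cell-like cells it was 0, and 1 with the trend. Without a filter 3513 genes were called against Kupffer-like cells (2028 with it) and 3356 against B-cell-like cells (2109). Between the ends of the score, 60 were called, but 4 with the mean before the logarithm, 9 without a filter, 30 with marker-based classes, 38 with 2 parts in place of 3 and 29 to 69 leaving out 1 mouse. Of the 8 genes, 1 (Nrp1) exceeded the B-cell-like level in every mouse in pDC-like cells, but 0 with a pseudocount of 0.1 and 5 with marker-based classes, where Kdr was at 1.44, Flt4 at 0.90 and Ptprb at 1.69. The cause of these shifts was not tested.

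With the replicate number as a block, 0 genes were called between diets in each of the 3 classes, so the 1 call in Kupffer-like cells was lost. The labels do not say whether mice of the same number share anything else. The deviations of same-numbered mice correlated at -0.20, 0.11 and -0.21 in endothelial-like, 0.04, -0.03 and 0.13 in Kupffer-like and 0.20, 0.07 and 0.14 in B-cell-like cells. In these classes 1, 2 and 6 of 6 mice correlated best with their own number.

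Signs turned only for differences that were not called. With 10 principal components the diet difference in endothelial-like cells was 0.11 for Kdr, 0.25 for Flt1 and 0.0449 for Nrp1, and with marker-based classes 0.29, 0.39 and 0.0783, with Tek at 0.0197. Tie1 was at -0.0582 with a pseudocount of 0.1 and at -0.0379 with the mean before the logarithm. In clusters 6 and 10 only, chosen after seeing the data, Flt1 and Nrp1 were at 0.16. Leaving out 1 mouse gave -0.64 to 0.22 for Kdr, -0.37 to 0.37 for Flt1, -0.0667 to 0.54 for Flt4, -0.66 to 0.11 for Tek, -0.53 to 0.80 for Tie1, -0.68 to 0.0368 for Nrp1 and -0.39 to 0.54 for Nrp2. In Kupffer-like cells, Kdr was at -0.30 with 10 components, -0.0447 with marker-based classes and -0.0505 with medians. Tie1 was there at -0.0403 with a pseudocount of 0.1, -0.0133 after rescaling, -0.28 with 10 components, -0.16 with marker-based classes and -0.16 with medians, and Nrp1 at 0.13 with medians. Leaving out 1 mouse gave -0.32 to 0.32 for Kdr, -0.18 to 0.26 for Tie1, -0.54 to 0.33 for Nrp1 and -0.48 to 0.13 for Ptprb. In B-cell-like cells Kdr was at 0.0442 with medians, and Tie1 at -0.32 to 0.15 leaving out 1 mouse.

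Between Kupffer-like and B-cell-like cells, Flt4 was at -0.0769 with a pseudocount of 0.1, -0.12 after rescaling and -0.0693 with marker-based classes, and Tie1 at -0.0508, -0.0632 and -0.0278, or -0.0333 to 0.15 leaving out 1 mouse. Without the Kupffer-like cells high in 2 of Kdr, Flt4 and Ptprb, chosen after seeing the data, Kdr was at -0.0141, Flt4 at -0.17 and Tie1 at -0.0954. Kdr and Flt4 served to choose the cells left out, and no B-cell-like cell was left out, so the signs of these 2 genes follow from the choice. Between the ends of the score, Kdr was at 0.24 with 10 components, 0.14 with marker-based classes and 0.0524 with 2 parts, Flt1 at 0.0005 with a pseudocount of 0.1 and 0.26 with 10 components, Flt4 at 0.0323 and Tie1 at -0.17 with the mean before the logarithm, and Tek at -0.0235 and Nrp2 at 0.0746 with 2 parts. Leaving out 1 mouse gave -0.32 to 0.13 for Kdr, -0.42 to 0.0259 for Flt1, -0.29 to 0.0800 for Flt4, -0.0896 to 0.47 for Tie1 and -0.26 to 0.26 for Nrp2.

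Depth limits what can be said of low values, most of all in HFD mouse 2.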
